A study of Mus musculus with 6 samples.

Results

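The 9 digestive-enzyme and regulator genes of the pancreatic acinar cell described here were measured in RNA from sorted fetal mouse liver cells. The genes are *Ctrb1*, *Cpa1*, *Cel*, *Pnlip*, *Cela1*, *Cela2a*, *Cela3b*, *Rbpjl* and *Bhlha15*, 9 of the 52550 genes listed, each found by the Ensembl identifier of its symbol. The set was chosen on the measured values of *Ctrb1*, which differed strongly between the E16.5 libraries, so the differences among those libraries are described here without a test. Each of the stages E16.5 and E18.5 had 3 libraries, called replicates A, B and C, or 6 in all. All came from CD-1 mice of the Sox9-GFP genotype, whose GFP reporter lights up cells with the transcription factor SOX9 on, and no other allele or agent is named. The labels give the stages as embryonic days 16 and 18, and E16.5 and E18.5 are the stages of the study's methods. GFP-positive cells were sorted from pools of dissociated livers after depletion of blood-lineage cells, so a library is a pool of embryos and not an animal. The reporter marks any SOX9-expressing cell, which in the embryo includes pancreatic progenitors and ducts besides biliary cells.

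Acinar cells make up most of the exocrine pancreas and secrete digestive enzymes, many of them as inactive zymogens, into the ducts. Their gene programme is driven by the PTF1 complex, in which the factor PTF1A pairs with an E protein and with RBPJL and binds an E-box next to a second motif, the TC-box. BHLHA15, also called MIST1, organises the secretory apparatus of the mature acinar cell. The liver, the extrahepatic bile duct and the ventral pancreas arise side by side from the foregut, and SOX9 is shared by their progenitors and ducts.

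Values are TPM, a share of all transcripts scaled by gene length and by the total of the library and may therefore be compared between genes. The libraries held 13093937 to 26206374 reads, recovered from the TPM as described under the processing, and every E18.5 library was shallower than every E16.5 library. The sorted cells carried biliary markers. None of the 10 biliary markers was below 1 TPM in any library, and the reporter gene's own transcript *Sox9* stood at 69.5 to 186 TPM at E16.5 and at 353 to 466 TPM at E18.5. All 12 hepatoblast markers were present too, with summed levels of 161599 to 202859 TPM at E16.5 and 37305 to 87275 TPM at E18.5. Acinar transcripts were a small part of each library. The 9 genes summed to 2505, 227 and 84.7 TPM in E16.5 replicates A, B and C, and to 27.6, 56.8 and 20.1 TPM in the E18.5 replicates. E16.5 replicate A therefore held most of the acinar signal, 0.25% of its transcripts against 0.0227% or less in every other library. In bulk RNA, fewer cells of a type and less RNA per cell cannot be told apart.

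*Ctrb1* encodes chymotrypsinogen B, the zymogen of a protein-cutting enzyme. It lies on chromosome 8 at 111686519 to 111691010 of GRCm38, minus strand. Its level was 1914, 167 and 53.1 TPM in E16.5 replicates A, B and C and 11.7, 35.9 and 0.841 TPM in the E18.5 replicates. E16.5 A was 11.4-fold above B and 36-fold above C, and the 6 libraries spanned 2275-fold. The high values rest on many reads, 14409, 1147 and 372 at E16.5, whereas the lowest, E18.5 C, rests on 3 reads with a 95% exact interval of 0.174 to 2.46 TPM. Such intervals cover counting error only. In E16.5 A the gene ranked above 99.9% of protein-coding genes, and in E18.5 C above 33.7%. All 3 E16.5 libraries lay above all 3 E18.5 libraries, the nearest pair being E16.5 C and E18.5 B, and the order within E16.5 was A, B, C.

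*Cpa1* encodes carboxypeptidase A1, which trims amino acids from the carboxyl end of peptides, and lies on chromosome 6 at 30639218 to 30645363, plus strand. It was at 293, 27.8 and 8.95 TPM at E16.5 and at 1.5, 4.58 and 1.27 TPM at E18.5. Libraries thus ranked for *Cpa1* as for *Ctrb1*, again without overlap between the stages. The ratio of the pair was close across the E16.5 libraries, where both were well counted. *Cpa1* stood at 15.3%, 16.6% and 16.9% of the *Ctrb1* level there. It stood at 12.9% and 12.8% in E18.5 A and B, on only 18 and 41 *Cpa1* reads, so these ratios are loosely set. In E18.5 C, with 3 *Ctrb1* and 9 *Cpa1* reads, the ratio was 151%.

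The lipases followed separate patterns. *Cel*, on chromosome 2 at 28555795 to 28563403, minus strand, encodes the bile-salt-activated carboxyl ester lipase. Its levels were 97.3, 11.3 and 1.91 TPM at E16.5 and 3.61, 1.95 and 1.76 TPM at E18.5. E16.5 A was again highest, 8.58-fold above B and 51-fold above C, but E16.5 C lay among the E18.5 libraries, so the stages overlapped. *Pnlip*, on chromosome 19 at 58652498 to 58681788, plus strand, encodes pancreatic triglyceride lipase, an enzyme known to become abundant mainly after birth. It was at 0.314, 0.432 and 0.253 TPM at E16.5 and at 0, 0.395 and 0 TPM at E18.5. It was the only member that was not highest in E16.5 A, and at these levels no order of the libraries can be read.

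The elastase family genes encode enzymes that cut proteins. *Cela1* lies on chromosome 15 at 100674421 to 100687921, minus strand, and its levels were 62.6, 9.65 and 13.2 TPM at E16.5 and 5.7, 8.34 and 10.5 TPM at E18.5. It varied least of the enzymes that were detected in every library, 11-fold, and apart from E16.5 A its libraries overlapped between the stages. *Cela2a* lies on chromosome 4 at 141814962 to 141826160, minus strand. It was at 83.5, 5.06 and 1.67 TPM at E16.5 and at 2.29, 2.95 and 0.429 TPM at E18.5, so E16.5 A was 16.5-fold above B and 49.9-fold above C. Of its exon length 17.7% is shared with *Ctrc* on the same strand, and whether reads there were counted for either gene is uncertain. *Cela3b*, at 137420999 to 137430540 of chromosome 4, minus strand, was at 31.5, 1.08 and 0.452 TPM at E16.5 and at 0.351, 0.588 and 0 TPM at E18.5. Only E16.5 A held more than 14 reads of it, and the 0 of E18.5 C allows up to 0.444 TPM at a limit of 3 reads. Of its 50-base stretches 19.2% also occur in *Cela3a*, whose own level was 0.73 TPM in E16.5 A and at most 0.134 TPM elsewhere.

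The regulators were far lower than *Ctrb1* in E16.5 A. *Rbpjl*, the acinar subunit of PTF1, lies on chromosome 2 at 164403141 to 164415448, plus strand. It was at 9.48, 0.783 and 0.962 TPM at E16.5 and at 1.35, 0.512 and 3.44 TPM at E18.5, with 466 reads in E16.5 A and 15 to 80 in the others. Its second-highest library was E18.5 C, the library in which *Ctrb1* was lowest. *Bhlha15*, on chromosome 5 at 144190286 to 144194441, plus strand, was at 13.2, 3.19 and 4.16 TPM at E16.5 and at 1.13, 1.62 and 1.83 TPM at E18.5. Its stages did not overlap, and its excess in E16.5 A was the smallest of the 8 members highest there, 4.12-fold over B and 3.16-fold over C.

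**Figure D1:**
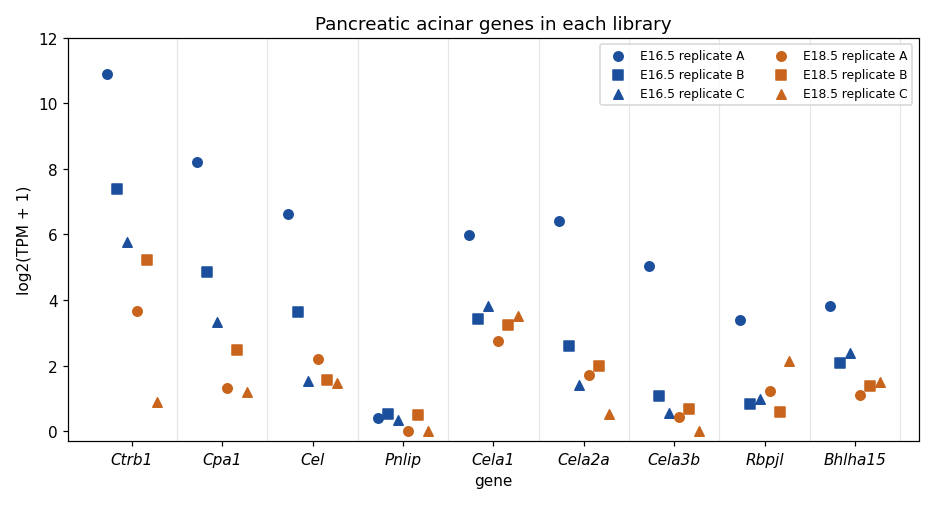
Level of each of the 9 genes in each of the 6 libraries, as log2(TPM + 1), with E16.5 in blue and E18.5 in orange. *Ctrb1* runs from 1914 TPM in E16.5 A to 0.841 TPM in E18.5 C, while *Pnlip* stays at 0.432 TPM or below.

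Within E16.5 the members differed in how far they dropped from replicate A. In replicate C, *Ctrb1*, *Cpa1*, *Cel*, *Cela2a* and *Cela3b* were at 1.43% to 3.06% of their level in A, whereas *Rbpjl* was at 10.2%, *Cela1* at 21.1%, *Bhlha15* at 31.6% and the barely detected *Pnlip* at 80.6%. The first 5 also kept the order A, B, C. For *Cela1*, *Rbpjl* and *Bhlha15* the level in C was above that in B, but the 95% exact intervals of B and C overlapped for *Rbpjl*, *Bhlha15* and *Cela3b*, so their order is not resolved by the counts. In all, 8 of 9 members were at least 3-fold higher in A than in both B and C. Among the 22452 genes averaging 1 TPM or more over the libraries this was so for 2.59%, and 442 genes were likewise highest in B and 352 in C. The choice of the set rests on this contrast, so nothing is read from the count. The make-up of the members' sum differed between the libraries along with its amount, and which cells each member came from was not tested. *Ctrb1* was 76.4%, 73.9% and 62.7% of the members' sum at E16.5 and 42.2%, 63.1% and 4.2% at E18.5, and *Cela1* was 2.5% of it in E16.5 A but 52.3% in E18.5 C.

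**Figure D2:**
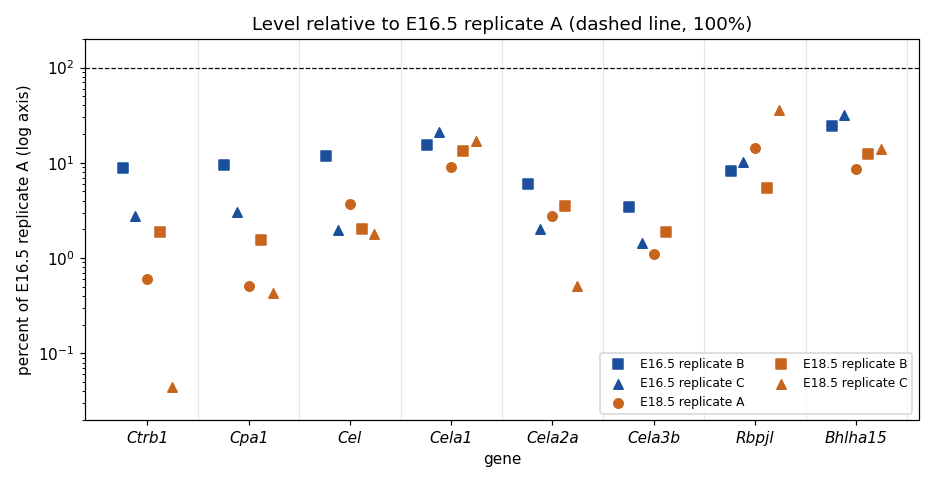
Level of 8 members in the other 5 libraries as a percent of their level in E16.5 replicate A, on a log axis, with the dashed line at 100%. The 0 of *Cela3b* in E18.5 C is not drawn. For *Ctrb1* the points run down to 0.044% in E18.5 C, whereas *Bhlha15* in E16.5 C stands at 31.6%.

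Promoters of the 9 genes, from 250 bases before to 50 after the start of transcription in RefSeq (GRCm38.p6), were searched on both strands for the parts of the motif that PTF1 is known to bind. The letters searched were CANNTG for the E-box, CACCTG as one of its forms, and TTTCCC for the TC-box. All 9 symbols matched a promoter. CANNTG was in 8 of 9 member promoters and in 72.3% of all 32851 promoters, CACCTG in 6 of 9 and 20.2%, and TTTCCC in 5 of 9 and 25.2%. The E-box followed by the TC-box, with starts 10 to 12 or 20 to 22 bases apart so that the motifs do not overlap, was in 0.734% of all promoters and in those of *Ctrb1*, *Cela1*, *Cel* and *Cpa1*. Of 20 promoters matched for the other acinar secreted genes, that of *Prss1* alone held it. A match in these letters is a description and not a site. The promoters with the pair are shown, since *Ctrb1*, the highest of the members, and *Cela1*, the steadiest of its enzymes, are among them. Each is written 5′ to 3′ on the strand of the gene, in lower case, with capitals marking the E-box and the TC-box of the pair. In *Cel* and *Cpa1* the pair lies on the opposite strand, so the capitals read GGGAAA first.
Ctrb1, chr8:111690961-111691260, minus strand: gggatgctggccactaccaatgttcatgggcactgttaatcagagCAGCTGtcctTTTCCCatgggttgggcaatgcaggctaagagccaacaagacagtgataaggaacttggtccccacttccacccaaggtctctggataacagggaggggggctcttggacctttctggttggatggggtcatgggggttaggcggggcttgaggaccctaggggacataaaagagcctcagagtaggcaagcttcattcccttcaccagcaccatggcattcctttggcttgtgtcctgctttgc
Cela1, chr15:100687871-100688170, minus strand: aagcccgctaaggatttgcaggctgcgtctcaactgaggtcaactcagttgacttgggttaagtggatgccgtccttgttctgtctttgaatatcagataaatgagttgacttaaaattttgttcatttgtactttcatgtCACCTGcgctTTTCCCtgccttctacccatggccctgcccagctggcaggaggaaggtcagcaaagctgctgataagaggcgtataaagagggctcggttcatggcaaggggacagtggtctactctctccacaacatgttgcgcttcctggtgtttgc
Cel, chr2:28563354-28563653, minus strand: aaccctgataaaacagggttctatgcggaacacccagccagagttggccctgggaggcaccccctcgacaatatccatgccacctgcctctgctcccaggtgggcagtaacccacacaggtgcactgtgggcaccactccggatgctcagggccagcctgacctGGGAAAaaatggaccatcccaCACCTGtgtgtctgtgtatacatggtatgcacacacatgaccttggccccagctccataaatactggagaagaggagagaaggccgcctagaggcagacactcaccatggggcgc
Cpa1, chr6:30638968-30639267, plus strand: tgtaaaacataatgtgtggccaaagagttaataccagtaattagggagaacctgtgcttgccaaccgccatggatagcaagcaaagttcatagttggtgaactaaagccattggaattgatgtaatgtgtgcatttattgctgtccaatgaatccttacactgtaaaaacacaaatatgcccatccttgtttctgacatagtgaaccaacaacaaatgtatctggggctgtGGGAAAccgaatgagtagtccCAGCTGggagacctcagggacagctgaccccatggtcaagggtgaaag
In *Ctrb1* and *Cela1* the motif starts were 10 bases apart, at 205 and 109 bases before the start of transcription. In *Cel* and *Cpa1* they were 21 bases apart, and in *Cpa1* the pair spans the start of transcription itself. *Ctrb1* and *Cela1* thus share the closer spacing, although one varied 2275-fold and the other 11-fold over the libraries.

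Comparing the stages asks whether acinar transcripts changed in the sorted cells between E16.5 and E18.5. *Ctrb1* and *Cpa1* fell, 2 of the 8 members that reached the mean of 1 TPM needed for testing, and 0 rose. An unadjusted p under 0.05 was reached by 3 of the 8 members, each lower at E18.5, beside 7.34% of all genes tested lower and 39.4% higher. Limma voom on recovered reads called 1 of 7, *Bhlha15*, also lower, beside 27.2% of all genes it tested. With limma on log2(TPM + 1) and Benjamini-Hochberg adjustment over 22452 genes, *Ctrb1* fell by 4.77 (SE 1.49, adjusted p = 0.048) and *Cpa1* fell by 3.79 (SE 1.14, adjusted p = 0.0429), each on the log2 scale, which understates changes of low genes. Means were 712 ± 1043 TPM against 16.1 ± 17.9 TPM for *Ctrb1* and 110 ± 159 against 2.45 ± 1.85 TPM for *Cpa1* (SD, n = 3 libraries a stage). The SD at E16.5 is larger than the mean for both, because of replicate A. The exact permutation test on the TPM gave p = 0.1 for both, two-sided, the smallest that 3 libraries against 3 can give. Over all genes tested 5.22% were called lower and 26.0% higher at E18.5. The E16.5 libraries that enter this test are those on which *Ctrb1* was chosen.

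The other 6 members did not pass the threshold. *Bhlha15* was nearest, with a difference of -1.42 (SE 0.47, adjusted p = 0.0548 with limma) and means of 6.84 ± 5.49 and 1.53 ± 0.361 TPM. The elastase genes differed by -1.25 for *Cela1* (SE 0.64), -2.07 for *Cela2a* (SE 1.19) and -1.84 for *Cela3b* (SE 1.10), with limma adjusted p of 0.164 to 0.224. *Cel* differed by -2.18 (SE 1.13, adjusted p = 0.169 with limma), and *Rbpjl* by -0.41 (SE 0.75, adjusted p = 0.69). *Cela3b* entered the test only through its level in E16.5 A, and *Pnlip* was too low to enter. The stages did not overlap for 3 of 9 members, *Ctrb1*, *Cpa1* and *Bhlha15*, each higher at E16.5, as for 8.30% of all genes tested. The median difference over the 8 members was -1.95, beside 0.42 over all genes tested. Without E16.5 A the members' median was -0.84 over 7 genes, 6 of them below 0, since *Cela3b* could no longer be tested. Scaling by the median of ratios moved the median of all genes to 0.01, and under it neither *Ctrb1* (adjusted p = 0.059 with limma) nor *Cpa1* (0.0516) passed.

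**Figure D3:**
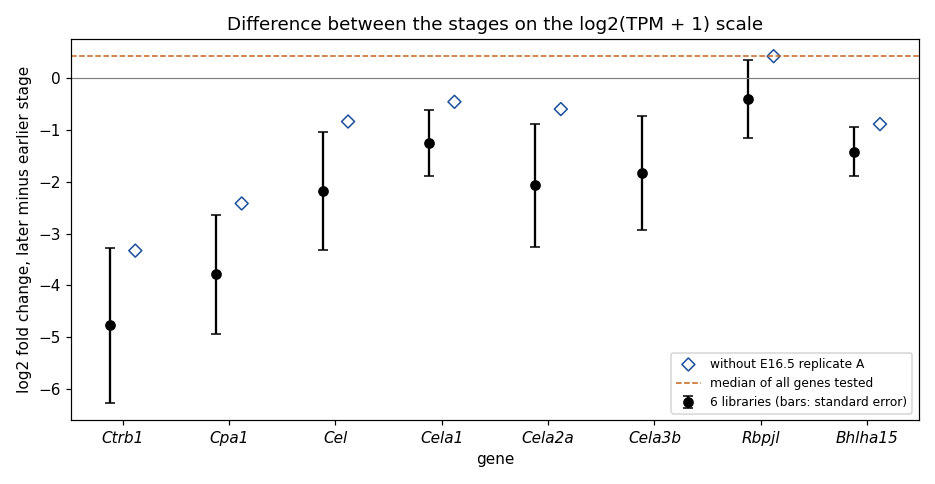
Difference between E18.5 and E16.5 in log2(TPM + 1) for the 8 members tested, with bars of 1 SE, and diamonds for the same difference without E16.5 replicate A. The dashed line is the median of all genes tested, 0.42. *Ctrb1* and *Cpa1* lie furthest below 0. *Rbpjl* moves from -0.41 to 0.42 when that library is left out, and *Cela3b* has no diamond because its mean then falls under 1 TPM.

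The stage calls leaned on single libraries. Without E16.5 A, *Cpa1* still fell by 2.42 (adjusted p = 0.0422 with limma), whereas *Ctrb1* differed by -3.33 with an adjusted p of 0.0941. In that setting 1 of 7 members tested was called, beside 19.4% of all genes tested. Leaving out each library in turn gave *Ctrb1* values from -5.90 to -3.33, with 1 of 6 below the threshold, and *Cpa1* values from -4.86 to -2.42, with 2 of 6 below it. The direction of each was the same in all 14 alternatives.

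The rest of the acinar secretory programme was counted in a list of 29 other secreted products, of which 23 could be tested. Of these 5 fell, 0 rose and 18 did not pass, beside 5.22% of all genes tested called lower and 26.0% higher. At an unadjusted p under 0.05 there were 10 lower and 2 higher, beside 7.34% and 39.4% of all genes. Voom on recovered reads called 1 of 18, beside 27.2% of all genes it tested. It could not test *Spink1*, *Pnliprp1* or *Pnliprp2*, whose reads were not recovered. The median difference was -1.83. *Prss3*, *Try4*, *Try5* and *Klk1* entered the test only through their level in E16.5 A. Without that library the median was -1.34 over 19 genes. *Spink1*, which encodes an inhibitor of trypsin, fell by 2.04 (SE 0.30, adjusted p = 0.00999 with limma), from 110, 113 and 155 TPM to 48.2, 22.7 and 23.3 TPM. Its E16.5 libraries were alike, and unlike *Ctrb1* it was not highest in replicate A. It was highest in E16.5 C, as was the hepatoblast sum, and which cells its transcript came from was not tested. *Pnliprp1*, for pancreatic lipase-related protein 1, fell by 3.72 (SE 0.81, adjusted p = 0.0193 with limma), from 1390, 235 and 139 TPM to 31.8, 37.5 and 14.9 TPM, and in E16.5 A it was the only other acinar product near the level of *Ctrb1*. The related lipase gene *Pnliprp2* fell by 2.24 (adjusted p = 0.0263) and the amylase gene *Amy2a5* fell by 2.15 (adjusted p = 0.0216, both with limma). *Amy2a5* and *Amy2b* are near-identical copies, so how many of their reads were counted, and for which gene, is uncertain.

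Several abundant products did not pass although E16.5 A was high. *Clps*, the cofactor of pancreatic lipase, was at 166, 18.4 and 7.07 TPM at E16.5 and at 1.33, 7.11 and 0 TPM at E18.5, with a difference of -3.48 (SE 1.19, adjusted p = 0.0609 with limma). *Prss1*, for a trypsinogen, was at 53.7, 5.89 and 1.25 TPM at E16.5 and at 0.182, 0.972 and 0.306 TPM at E18.5, with a difference of -2.71 (SE 1.05, adjusted p = 0.0857 with limma). Of the 29 genes, 23 were highest in E16.5 A and 24 kept the order A, B, C at E16.5. The shares over all genes were not computed, so nothing is read from these counts. In other lists the order A, B, C held for 19 of 23 endocrine, 7 of 11 progenitor and duct, and 11 of 16 gut, stomach and gallbladder genes. It held for 3 of 10 biliary and 1 of 12 hepatoblast genes. *Reg1*, a regenerating-family secreted protein, kept that order but was nearly as high in E18.5 B, at 21.6 TPM, as in E16.5 A, at 26.3 TPM. The granule protein gene *Zg16* had its highest level, 12 TPM, in E18.5 B. Without E16.5 A, 4 of 19 genes were lower and 1, *Zg16*, was higher, beside 19.4% of all genes tested called in either direction.

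Of 10 acinar transcription and secretory factors, *Rbpjl* and *Bhlha15* included, 7 were highest in E16.5 A, and the share over all genes was not computed. Of the 8 tested, 1 rose, 1 fell and 6 did not pass, beside 26.0% of all genes tested called higher and 5.22% lower. *Ptf1a*, the defining factor of the acinar lineage, had 4 reads in E16.5 A, or 0.309 TPM with a 95% exact interval of 0.0843 to 0.792 TPM. It had 0 reads in each of the other 5 libraries, where 3 reads would be 0.249 to 0.49 TPM. *Nr5a2*, a nuclear receptor of acinar cells that liver cells also use, rose by 0.77 (SE 0.14, adjusted p = 0.0132 with limma), from 75.1, 81 and 67.7 TPM to 135, 141 and 109 TPM, and by 0.31 with an adjusted p of 0.0827 under median-of-ratios scaling. *Nupr1*, a stress-induced chromatin protein, fell by 1.67 (SE 0.51, adjusted p = 0.0454 with limma), and without E16.5 A its difference was -1.19 (adjusted p = 0.1). The 10 genes summed to 276 to 332 TPM in the E16.5 libraries and 285 to 305 TPM in the E18.5 libraries.

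Markers of other cell types that a Sox9-GFP gate can hold were measured beside the acinar genes. The sum of 23 pancreatic endocrine genes was 111, 79 and 18.5 TPM at E16.5 and 75.2, 140 and 57.7 TPM at E18.5. Its order at E16.5 was that of *Ctrb1*, with 19 of 23 genes in the order A, B, C, while its highest library was E18.5 B. The share of all genes in that order was not computed. The hormone genes were not alike. *Ins2* was at 4.36, 3.22 and 0 TPM at E16.5 and at 7.8, 12.4 and 0 TPM at E18.5. *Sst* was at 7.79, 12.6 and 0.209 TPM at E16.5 and at 15.9, 34.3 and 12.7 TPM at E18.5. In E18.5 C *Ins1*, *Gcg* and *Iapp* were at 0 TPM as well, whereas *Ppy* was at 3.45, *Pyy* at 1.56 and *Ghrl* at 23.5 TPM. With limma 0 of 15 endocrine genes tested were called, 0 had an unadjusted p under 0.05, and limma voom on the recovered reads called 0 of 13. Of all genes tested with limma, 31.2% were called and 46.7% had an unadjusted p under 0.05, and voom called 27.2% of those it tested. *Pdx1*, a factor of the early pancreas and duodenum, was at 8.43, 5.7 and 0.29 TPM at E16.5 and at 6.44, 5.8 and 4.79 TPM at E18.5, lowest in E16.5 C by a wide margin.

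The 11 pancreatic progenitor and duct genes summed to 399, 370 and 174 TPM at E16.5 and to 819, 854 and 727 TPM at E18.5. Of 8 tested, 5 rose, beside 26.0% of all genes, and 3 under median-of-ratios scaling, where 16.9% of all genes were called in either direction. Among them were the transcription factor genes *Foxa2*, by 1.04, and *Onecut1*, by 1.37, which biliary cells use as well. The biliary list rose likewise, with 9 of 10 genes called higher (4 of 10 under median-of-ratios scaling) and sums of 741 to 2557 TPM at E16.5 and 8069 to 13964 TPM at E18.5. E16.5 C was lowest of the 6 libraries in the biliary and the progenitor sums and highest in the hepatoblast sum. E16.5 A, where the acinar genes peaked, had a biliary sum of 2009 TPM, between those of B and C, and the greatest depth of the 6 libraries. The part of these lists and of depth in the acinar differences was not tested.

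**Figure D4:**
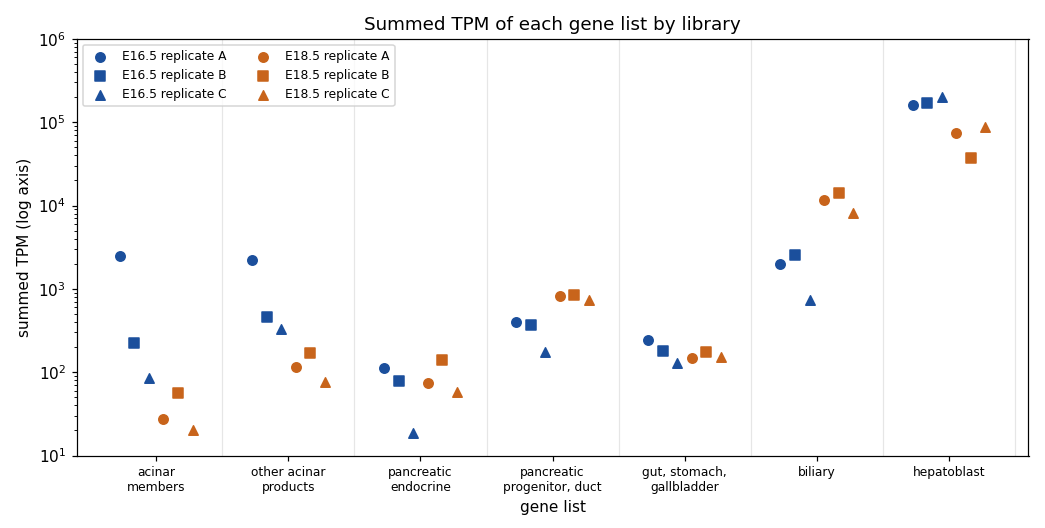
Summed TPM of each marker list in the 6 libraries, on a log axis, with E16.5 in blue and E18.5 in orange. The acinar members span 2505 to 20.1 TPM and are highest in E16.5 A, while the biliary sum is higher in every E18.5 library and the endocrine sum peaks at 140 TPM in E18.5 B.

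The genes most like *Ctrb1* over the 6 libraries, by Pearson's r of log2(TPM + 1) among 20454 genes outside the lists, were *Mrpl28* (r = 0.9888), *Tbl2* (0.9852), *Gfpt1* (0.9786), *Gm42752* (0.9778), *Slc38a10* (0.9761), *Rimbp2* (0.9692), *Xpnpep1* (0.9687), *Gm16581* (0.9676), *Ap2a2* (0.9663) and *Troap* (0.9663). Their spread was far smaller than that of *Ctrb1*, since their highest library was 1.32 to 6.14 times their lowest. Among the acinar genes themselves r with *Ctrb1* was 0.991 for *Clps*, 0.967 for *Pnliprp1*, 0.954 for *Cpa1*, 0.91 for *Cela2a*, 0.845 for *Bhlha15*, 0.752 for *Cela1* and 0.365 for *Rbpjl*. It was near or below 0 for *Reg2* (0.0491), *Pla2g1b* (-0.136), *Zg16* (-0.154) and *Ctrl* (-0.399). With 6 points that share stage and depth, these values only describe the order of the libraries.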

How the data were processed

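RNA from GFP-positive liver cells was sequenced from 3 libraries at each of 2 stages, made with a strand-specific total RNA kit, and groups and replicate letters came from the labels. The authors checked reads with FastQC 0.11.7, used Trimmomatic for trimming, mapped to GRCm38 with HISAT2 2.1.0, counted genes of GENCODE vM15 with HTSeq 0.5.4p3 and converted counts to the deposited TPM, which sum to 1000000 in each library. Whether counting used the strand is not given in the sources used here. Bowtie is also named in the submitters' processing notes. All libraries list mitochondrial genes at 0.

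The members and lists were chosen with earlier results of these data known. Symbols, places and exon lengths came from GENCODE vM21 on the same build, which matched 52403 of 52550 identifiers. TPM times exon length gave whole reads within 0.01 for 100% of 180057 nonzero values of 49035 genes, and reads were recovered for 49583 genes. They were used for depth, exact (Clopper-Pearson) intervals, the limit of 3 reads and limma voom, and not for the main test. For *Pnlip* and *Cela1* no reads could be recovered.

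The stage test used limma 3.58.1 (R 4.3.3; eBayes with trend, Benjamini-Hochberg) on log2(TPM + 1) of the 22452 genes averaging 1 TPM or more, and a call is an adjusted p under 0.05. Exact permutation tests were run in Python 3.11.15. Nothing says that the pools are separate litters, so p-values measure the spread between these libraries, which may be technical. Named genes are the members, list genes, and the 10 genes of at least 200 bp of exon whose profile was most like that of *Ctrb1*. Alternatives were a pseudocount of 0.1, no filter, a minimum mean of 5 TPM, median-of-ratios and quantile scaling, eBayes without trend, limma voom, a replicate block by letter, and each library left out in turn. Some list genes are counted but not reported by name here.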

Additional observations from a re-analysis of the deposited data

How the results depend on the processing

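Over all genes 7000 were called, against 4282 with no filter on low values, 3795 with median-of-ratios scaling, 3796 with quantile normalization, and 1472 to 5686 when single libraries were left out. As shares of the genes tested these were 31.2%, against 9.89% with no filter, 16.9% with median-of-ratios or quantile scaling, and 6.57% to 25.6% with a library left out. The share was 27.1% without the trend, 27.2% with voom and 43% with a minimum mean of 5 TPM. The share of calls that were higher at E18.5 was 83.3%, 38.1% with median-of-ratios scaling and 50.5% with quantile normalization. Of the members 2 were called, against 0 with no filter and with eBayes without the trend (3 with an unadjusted p under 0.05 in each), 1 with median-of-ratios scaling and with limma voom (*Bhlha15* in both), and 0 to 3 with a library left out. The share of all genes at that unadjusted p without the filter or the trend was not computed. Of the other secreted products 5 were called, against 3 with no filter, 3 with a minimum mean of 5 TPM, 1 with voom and 1 to 10 with a library left out. *Ctrb1* missed the threshold at -5.13 with a pseudocount of 0.1, -4.77 with no filter and without the trend, -5.19 with median-of-ratios scaling, -5.04 with quantile normalization and -5.08 with voom, and ran from -5.90 to -3.33 with a library left out (adjusted p over its alternatives 0.0265 to 0.142). *Cpa1* missed it at -3.79 with no filter and without the trend, -4.17 with median-of-ratios scaling and -4.49 with voom, and ran from -4.86 to -2.42 (0.0279 to 0.154). *Bhlha15* passed it at -1.83 with a pseudocount of 0.1, -1.75 with median-of-ratios scaling, -1.84 with quantile normalization and -2.09 with voom, and ran from -1.77 to -0.89 (0.0332 to 0.136). *Cel* ran from -3.38 to -0.84 and passed without E16.5 C. *Rbpjl* reversed to 0.42 without E16.5 A, its lowest value being -0.85. *Cela1* ran from -1.75 to -0.46, *Cela2a* from -3.09 to -0.60 and *Cela3b* from -2.67 to -1.65, with 0 calls in any alternative. The causes were not tested. The replicate letters did not pair the libraries: the correlation of deviations for the same letter was -0.0425, 0.0814 and 0.14. With the replicate block 7314 genes, 32.6% of those tested, and 2 members were called. Low values limit *Cela3b* and *Rbpjl* outside E16.5 A, *Pnlip* in every library, and *Ctrb1* and *Cela2a* in E18.5 C, with 3 reads each.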

Other observations

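Genes of the gut, stomach and gallbladder, 16 in all, summed to 246, 182 and 130 TPM at E16.5 and to 148, 175 and 154 TPM at E18.5. With limma 2 of 10 tested changed, each lower at E18.5. The intestinal fatty-acid-binding gene *Fabp2* fell by 1.55 (adjusted p = 0.0209 with limma) and the trefoil-factor gene *Tff3* fell by 1.24 (adjusted p = 0.0306 with limma). Without E16.5 A 1 of 9 was called. Of all genes tested, 5.22% were called lower and 26.0% higher with 6 libraries, and 19.4% were called without E16.5 A. *Pgc*, which encodes the stomach zymogen progastricsin, was at 19.5, 3.69 and 0.271 TPM at E16.5 and at 1.37, 2.82 and 1.42 TPM at E18.5, and *Alpi*, intestinal alkaline phosphatase, was at 8.93, 1.76 and 0.268 TPM at E16.5 and at 0, 5.27 and 0.527 TPM at E18.5. Both were among the 11 of 16 genes that kept the order A, B, C at E16.5, as *Ctrb1* did. *Sox2*, a stomach factor, was at 0 TPM in every library.

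Another 3 acinar products were highest in E18.5 B, namely *Ctrl*, a chymotrypsin-like protease gene, at 6.77 TPM, the phospholipase gene *Pla2g1b* at 1.65 TPM and *Zg16* at 12 TPM. *Ctrl* was above every E16.5 library in all 3 E18.5 libraries, at 5.19, 6.77 and 5.96 TPM against 4.74, 2.77 and 3.04 TPM. The difference was 0.65 (SE 0.24, adjusted p = 0.0803 with limma), beside a median of 0.42 over all genes tested.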
